A study of Mus musculus with 192 samples.

Results

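The 39 Hox genes of the 4 mouse clusters were followed through retinoic acid (RA) differentiation of mouse embryonic stem cells (mESCs). They were taken by name, as every gene called Hox with a cluster letter from a to d and a number. This set was chosen with earlier results of these data known. It holds 39 of 39815 genes listed for cytoplasmic and nuclear RNA and of 45191 genes listed for total RNA. All cells were E14 mESCs, a line from the 129/Ola strain. They were taken from 2i medium, which keeps mESCs in the naive pluripotent state, and exposed to 0.25 µM all-trans RA in N2B27 medium, so that cells at 0 h and RA-exposed cells differ in medium as well as in RA. Cytoplasmic and nuclear RNA came from the same cells at 8 times (0 h and 6 h, 12 h, 24 h, 36 h, 48 h, 72 h and 96 h of RA) in 3 differentiation runs, numbered 5, 6 and 7, with 24 libraries of each fraction. Total RNA of unsorted cells gave 9 single-end libraries (replicates 1 and 2 at 0 h and at 96 h, and 1 library each at 6, 24, 36, 48 and 72 h) and 5 paired-end libraries of replicate 3 (0, 12, 24, 36 and 48 h). A further 2 libraries came from cells sorted at 96 h and are labelled XEN (extraembryonic endoderm-like) and ECT (ectoderm-like).

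Hox genes encode homeodomain transcription factors that give cells of the embryo their position along the head to tail axis. They lie in 4 clusters on different chromosomes, and genes at the same place in different clusters are paralogs that share a number. Low numbers lie at the 3′ end of a cluster and are known to be used early and in the hindbrain, high numbers lie at the 5′ end and are known to be used later and in the trunk, tail and limbs. RA, a ligand of nuclear receptors, is a known inducer of 3′ Hox genes, and Hox proteins bind DNA together with TALE cofactors of the Pbx and Meis families. The Hoxa cluster holds 11 members on the minus strand of chr6:52155590-52260880 (GRCm38, GENCODE M21). The Hoxb cluster holds 10 on the plus strand of chr11:96194316-96368256, the Hoxc cluster 9 on the plus strand of chr15:102921103-103036852, and the Hoxd cluster 9 on the plus strand of chr2:74668310-74765142. Annotated spans of Hoxa3 with Hoxa4, Hoxa5 and Hoxa6, of Hoxc5 with Hoxc6, Hoxc8, Hoxc9 and Hoxc10, and of Hoxd3 with Hoxd4 overlap on the same strand, so reads in shared parts were divided among them by estimation and the level of each of these genes is less certain.

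Depth was 9119521 to 21652601 counts per cytoplasmic library, 6860451 to 30624948 per nuclear library, 29362017 to 36364330 per single-end total RNA library and 12653980 to 13692847 per paired-end library. The fraction tables used here list no gene of chromosomes 7, 8, 9, X, Y or M, which hold no Hox cluster. Some genes of the marker and cofactor lists below are not listed for the fractions, so these lists are shorter there. Levels are given as CPM (counts scaled to library size) after TMM scaling within a kind of RNA, or as TPM (transcript abundances), which correct for length, wherever genes are compared with each other. The label of the starting cells was borne out by 5 listed pluripotency genes, whose summed cytoplasmic level ranged from 5224 to 5368 CPM at 0 h and from 154 to 218 CPM at 96 h. The summed level of 9 listed XEN markers ranged from 365 to 427 CPM at 0 h and from 12111 to 19002 CPM at 96 h. Lama1 alone gave 340 to 405 CPM and 9648 to 15597 CPM of these sums, and all 9 markers were higher at 96 h. The summed level of 6 ectoderm markers ranged from 177 to 202 CPM at 0 h and from 914 to 945 CPM at 96 h. In mixed cells of this kind, fewer cells of a type and less RNA per cell cannot be told apart. In total RNA, the single-end libraries of 36 h and 48 h were nearly the same. Their squared differences, gene by gene, had a median 1.2 times that of counting error alone, while the next closest pair of total RNA libraries was at 10.85, so total RNA values at these times are given with and without them. Whether 1 of them is a copy or carries another time was not tested. Among cytoplasmic libraries, runs 5 and 6 were the closest, at 1.92 times counting error at 36 h and 2 times at 24 h, so these runs differ by little more than counting error there.

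In cytoplasmic RNA the Hox genes first fell on balance and then rose cluster by cluster, Hoxa before Hoxb, and Hoxb before most of Hoxc and Hoxd. Of the 39 members, 32 had a mean count above 10 over the 24 libraries and were tested with edgeR. This filter admits genes that are high at a single time, so the shares below describe the tested members and not all 39. At 6 h, 1 of 32 was higher than at 0 h and 11 were lower (adjusted p under 0.05 from edgeR), against 16.2% higher and 17.1% lower among all 11675 genes tested. At 12 h the counts were 2 and 13, with 16.8% and 17.5% of all genes. At 24 h they were 11 and 14 (21.2% and 22.6%), at 36 h 14 and 10 (24.4% and 26.2%), and at 48 h 20 and 6 (28.4% and 28.6%). At 72 h, 24 were higher and 6 lower (32.5% and 32.9%), and at 96 h 23 and 6 (33.3% and 34.4%). The share of members that were higher thus lay below the background at 6 h and 12 h and above it from 24 h, and the median log2 change of the 32 members moved from -0.60 at 6 h to 2.04 at 72 h, while the median over all genes was -0.02 and -0.01. The count of 13 lower members at 12 h was 7 without run 6 and 5 without run 7. Here and below, counts with a run or library left out come without the share of all genes in the same fit. They show how stable a count is and cannot be set against the shares above.

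**Figure D1:**
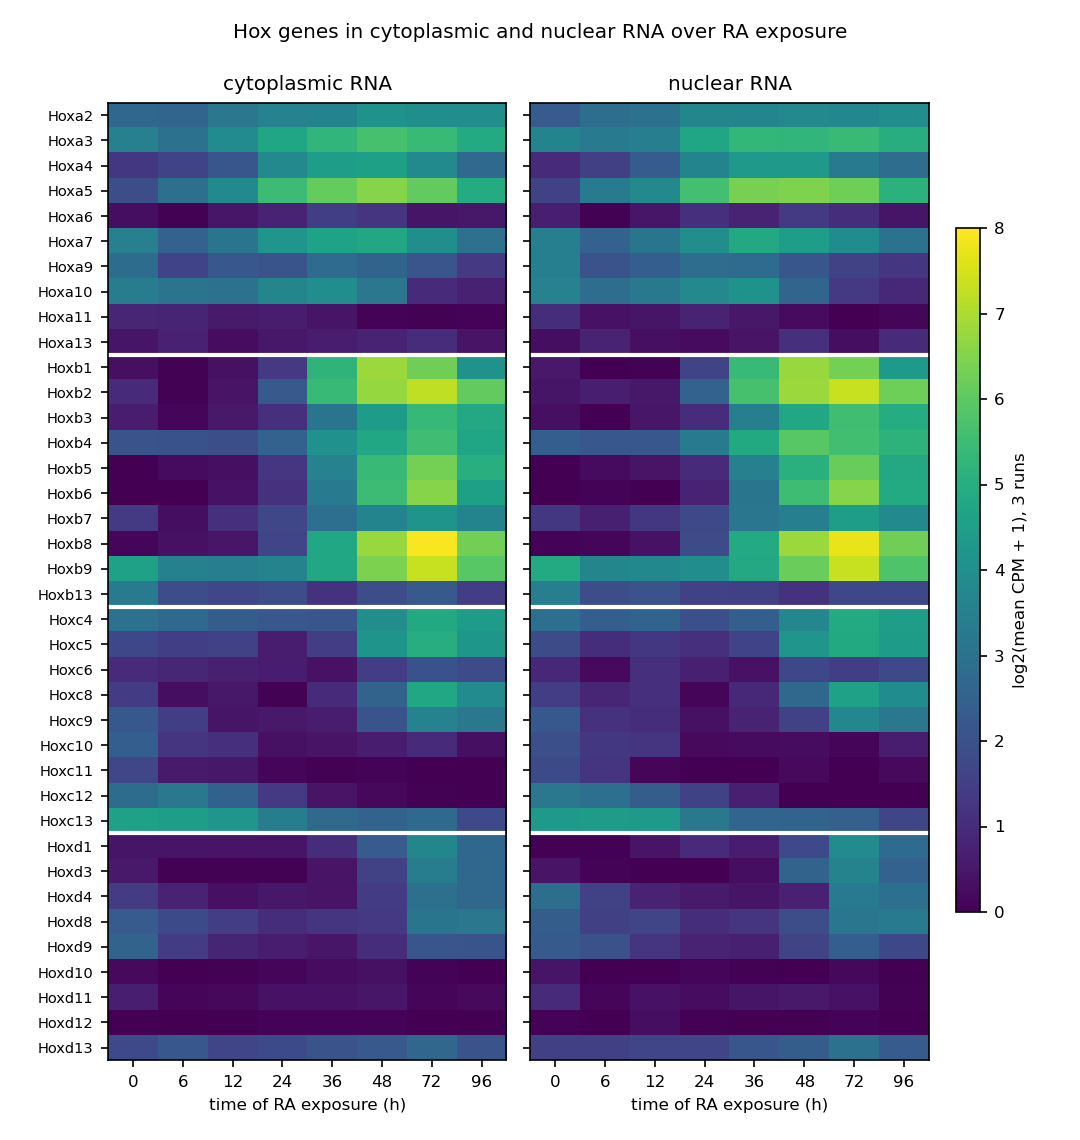
Heat map of log2(mean CPM + 1) over 3 runs for Hox genes (rows, by cluster and paralog number) at 8 times of RA exposure (columns) in cytoplasmic (left) and nuclear (right) RNA. In both fractions, Hoxa2 to Hoxa5 and Hoxa7 brighten by 24 h and Hoxb1 to Hoxb8 from 36 h. Hoxb9, Hoxc4, Hoxc5 and Hoxc8 rise above their 0 h level from 48 h and Hoxc9 from 72 h, while Hoxc12 and Hoxc13 darken.

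Promoter sequences are shown for 6 members that stand for the groups described below: Hoxa5, the first to rise, Hoxb1 and Hoxb8, with low levels at 0 h and high levels later, and Hoxb4, Hoxc4 and Hoxd4, paralogs that rose at different times. The RefSeq table (GRCm38.p6) holds promoters for 22 of the 39 members, 24 in all. Each sequence is the 250 bases before the annotated start, 5′ to 3′ on the strand of the gene, from chr6:52204588-52204837 (minus strand), chr11:96365508-96365757, chr11:96281655-96281904, chr11:96318017-96318266, chr15:103034145-103034394 and chr2:74721728-74721977 (plus strand). Capitals mark TGATNNAT, a site bound by pairs of Pbx and Hox proteins, in Hoxb1 and Hoxb8, and AGGTCA, a hexamer that RA receptors and other nuclear receptors bind, in Hoxb4, Hoxc4 and Hoxd4, on either strand. Other motifs searched are not marked. Hoxa5 is printed without capitals, since none of 4 motifs searched was in its window.
Hoxa5: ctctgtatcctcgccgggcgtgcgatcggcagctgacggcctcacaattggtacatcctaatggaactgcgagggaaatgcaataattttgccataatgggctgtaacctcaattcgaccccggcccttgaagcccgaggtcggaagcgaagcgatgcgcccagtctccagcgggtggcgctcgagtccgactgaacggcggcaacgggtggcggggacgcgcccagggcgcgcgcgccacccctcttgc
Hoxb1: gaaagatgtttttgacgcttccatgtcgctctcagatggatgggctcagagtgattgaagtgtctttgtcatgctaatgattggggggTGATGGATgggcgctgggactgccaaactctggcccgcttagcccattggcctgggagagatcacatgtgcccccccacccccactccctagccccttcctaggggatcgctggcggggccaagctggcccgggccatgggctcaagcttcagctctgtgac
Hoxb8: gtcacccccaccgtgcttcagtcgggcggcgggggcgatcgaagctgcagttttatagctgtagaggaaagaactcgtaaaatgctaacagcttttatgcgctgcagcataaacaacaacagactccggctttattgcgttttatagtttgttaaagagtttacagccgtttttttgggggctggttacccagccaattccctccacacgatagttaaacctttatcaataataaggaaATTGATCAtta
Hoxb4: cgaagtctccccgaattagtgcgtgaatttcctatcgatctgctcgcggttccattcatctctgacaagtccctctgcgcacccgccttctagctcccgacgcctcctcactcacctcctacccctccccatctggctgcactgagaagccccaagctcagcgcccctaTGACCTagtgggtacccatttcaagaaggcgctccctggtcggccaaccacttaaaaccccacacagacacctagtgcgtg
Hoxc4: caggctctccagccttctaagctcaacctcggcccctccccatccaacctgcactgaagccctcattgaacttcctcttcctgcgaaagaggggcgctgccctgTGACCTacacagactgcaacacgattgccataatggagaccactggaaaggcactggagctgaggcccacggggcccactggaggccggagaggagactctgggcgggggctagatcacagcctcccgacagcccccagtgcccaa
Hoxd4: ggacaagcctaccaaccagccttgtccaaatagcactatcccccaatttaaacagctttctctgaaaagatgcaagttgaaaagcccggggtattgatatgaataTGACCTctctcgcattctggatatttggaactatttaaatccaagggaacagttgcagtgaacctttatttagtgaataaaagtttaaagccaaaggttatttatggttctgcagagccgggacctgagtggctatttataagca
AGGTCA or its reverse TGACCT was in 6 of the 24 member promoters (Hoxb4, Hoxc4, Hoxd3, Hoxd4, Hoxd8 and Hoxd10) and in 14% of 32851 promoters of the same length. It began 81 bases before the start of Hoxb4, 146 before that of Hoxc4 and 145 before that of Hoxd4. The variant AGTTCA was in 2 (Hoxc4 and Hoxd13; 11.8% of all promoters). TGATNNAT was in 4 (Hoxa2, Hoxb1, Hoxb8 and Hoxd11; 7.68%), and the Cdx site TTTATG in 5 (Hoxa7, Hoxb8, Hoxd3, Hoxd4 and Hoxd11; 10.8%). A match describes the letters and does not show that a factor binds there.

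Hoxa genes were the first to rise. Hoxa5, which acts in lung and cervical vertebrae, had 2.98, 3.18 and 2.1 CPM in runs 5, 6 and 7 at 0 h and 8.81, 7.78 and 3.73 CPM at 6 h. It was higher at 6 h in every run, and the groups did not overlap (log2 change 1.37, standard error 0.28, adjusted p = 0.000586 from edgeR). It then had 40.5, 45.4 and 45.2 CPM at 24 h and reached 93.3 ± 5.34 CPM (SD, n = 3 runs) at 48 h, 33.9-fold above 0 h. Hoxa4 rose from 1.45 ± 0.287 CPM at 0 h to 22.3 ± 1.71 CPM at 48 h and passed the test from 12 h (log2 change 1.22, standard error 0.31, adjusted p = 0.00382 from edgeR), a call that was lost without run 6 (adjusted p = 0.11). Of the 8 Hoxa members tested, 6 were higher at 24 h than at 0 h, among them Hoxa2, Hoxa3, Hoxa5 and Hoxa7.

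Hoxa2, which specifies the second branchial arch, rose from 5.36 ± 1.21 to 15.9 ± 2.61 CPM, and Hoxa3 from 10.1 ± 1.8 to 50.3 ± 0.862 CPM between 0 h and 48 h. By length-corrected level at the peak, Hoxa5 led these genes with 80 TPM, against 29 for Hoxa3, 23.7 for Hoxa4 and 14.7 for Hoxa2.

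Hoxa7 rose less than Hoxa5 and returned to low levels, and Hoxa9 and Hoxa10 fell. Hoxa7 had 8.56, 10.1 and 11.9 CPM at 0 h and 8.29, 3.55 and 2.2 CPM at 6 h, with run 5 close to its value at 0 h. It passed the test as lower at 6 h (log2 change -1.06, standard error 0.30, adjusted p = 0.00948 from edgeR), a call lost without run 6 or run 7 (adjusted p = 0.183 and 0.139 from edgeR). It was highest at 48 h with 27.1 ± 2.12 CPM, and at 96 h was at 26.3% of that peak. Hoxa9 was highest at 0 h (6.1 ± 1.52 CPM) and lower at 5 of the 7 later times. Hoxa10 had 10.8, 6.37 and 11.3 CPM at 0 h, 11.7, 16.9 and 13.4 CPM at 36 h and 0.582, 1.34 and 1.02 CPM at 72 h. Its groups at 0 h and 72 h did not overlap (log2 change -3.23, standard error 0.33, adjusted p = 1.45e-08 from edgeR). Hoxa6, Hoxa11 and Hoxa13 were not tested, with highest mean levels of 1.78, 0.804 and 1.02 CPM.

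Hoxb genes rose later, and Hoxb1, Hoxb2, Hoxb3, Hoxb5, Hoxb6 and Hoxb8 rose from mean levels under 1 CPM by folds above those of the Hoxa genes. Hoxb8, a gene of the trunk and spinal cord, had 2 counts in all over the 3 libraries at 0 h and 10488 counts at 72 h. Its level was 0, 0.205 and 0 CPM at 0 h, 2.37, 1.85 and 2.42 CPM at 24 h, 109, 102 and 111 CPM at 48 h and 334, 190 and 199 CPM at 72 h. The ratio of 72 h to 0 h was 4299, with a counting interval of 1190 to 35500 (exact binomial, 95%, counting error only), and run 5 stood above runs 6 and 7 at 72 h. Hoxb6 had 0 counts in all libraries at 0 h and 91.5 ± 10.3 CPM at 72 h, at least 1118-fold higher when the 0 h group is set to 3 counts in all. Hoxb5 had 1 count at 0 h and 80.2 ± 20.9 CPM at 72 h, a ratio of 2900 (counting interval 520 to 114584).

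Hoxb1, which sets the identity of a hindbrain segment and has RA response elements of its own, had the earliest time to 50% of its maximum in the cluster in cytoplasmic RNA. It was first called higher at 24 h, as were Hoxb2, Hoxb5, Hoxb6 and Hoxb8. It had 0.0931, 0.103 and 0.599 CPM at 0 h, 1.19, 1.77 and 1.56 CPM at 24 h, 35.4, 35.8 and 37.4 CPM at 36 h and 112, 107 and 113 CPM at 48 h. The runs lay close together at 36 h and 48 h, and the level then fell to 75.4 CPM at 72 h and 16 CPM at 96 h. Hoxb2, its target in the hindbrain, went from 0.989 ± 0.304 CPM at 0 h to 150 ± 26.6 CPM at 72 h, Hoxb3 from 0.531 ± 0.101 to 40 ± 11.1 CPM, Hoxb4 from 3.13 ± 0.945 to 45.5 ± 15.8 CPM and Hoxb7 from 1.55 ± 0.095 to 16.7 ± 1.61 CPM. All 9 of these Hoxb members other than Hoxb13 were higher at 72 h than at 0 h, and each was higher at 36 h than at 24 h. Over all clusters, 14 of 32 members were higher at 36 h than at 24 h, against 5.4% of all genes, and 15 at 48 h than at 36 h, against 9.77%. The count of 14 was 9 without run 6.

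Hoxb9 and Hoxb13 lie at the 5′ end of the cluster and were both expressed at 0 h. Hoxb9, a gene of the thoracic region, had 22.7 ± 0.69 CPM at 0 h, 9.33, 10.6 and 11.1 CPM at 6 h and 130, 185 and 159 CPM at 72 h. It was lower in every run at 6 h (log2 change -1.14, standard error 0.20, adjusted p = 9.73e-05 from edgeR), still lower at 24 h (log2 change -1.05), and 6.97-fold above 0 h at 72 h. Hoxb13, a gene of the tail and prostate, had 8.67 ± 1.95 CPM at 0 h and was lower at all 7 later times, with log2 changes of -1.21 at 72 h and -2.33 at 96 h. Without run 6 its calls at 6, 48 and 72 h were lost (adjusted p = 0.0596, 0.0512 and 0.114 from edgeR), and without run 7 those at 24 h and 72 h (adjusted p = 0.0727 and 0.0792 from edgeR).

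Hoxc genes fell before their 3′ members rose. At 24 h none of the 8 tested was higher than at 0 h and 7 were lower. Hoxc8, a gene of the thoracic skeleton, had 1.12, 2.16 and 1.74 CPM at 0 h, 0, 0 and 0.0711 CPM at 24 h and 30.9, 23 and 27 CPM at 72 h. The groups did not overlap at any of these times, and the gene was lower at 24 h (adjusted p = 3.9e-05 from edgeR) and higher at 72 h (log2 change 4.01, standard error 0.44, adjusted p = 4.52e-08 from edgeR). Hoxc4 went from 7.14 ± 0.191 CPM at 0 h to 28 ± 2.88 CPM at 72 h, Hoxc5 from 2.3 ± 0.994 to 30.9 ± 6.34 CPM and Hoxc9 from 3.58 ± 1.22 to 10.6 ± 1.83 CPM. Hoxc6 reached 3.02 ± 1.19 CPM at 72 h (log2 change 1.62), a call lost without run 6 or run 7 (adjusted p = 0.0774 and 0.065 from edgeR).

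The 5′ Hoxc genes went the other way. Hoxc13, a gene of hair and nails, had 20.8, 23.9 and 24.4 CPM at 0 h, 8.03, 9.44 and 10.9 CPM at 24 h and 2.76, 2.28 and 2.1 CPM at 96 h, with no overlap between these times (96 h against 0 h, log2 change -3.27, standard error 0.22, adjusted p = 1.24e-11 from edgeR). Hoxc12 had 6.14 ± 1.37 CPM at 0 h and 8.12 ± 0.821 CPM at 6 h, was lower from 24 h on, and was at 0 in all 3 libraries at 96 h. Hoxc10, a gene of the lumbar region, was highest at 0 h (4.3 ± 1.11 CPM) and lower at all 7 later times. Hoxc11 was not tested; its 85 counts at 0 h correspond to 2.26 ± 0.122 CPM, its highest level.

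Hoxd1 and Hoxd3 were first called higher at 48 h, as were Hoxc4, Hoxc5 and Hoxc8, and levels in Hoxd stayed low. Hoxd1 had 0, 0.616 and 0.479 CPM at 0 h and 14.9, 9.64 and 11 CPM at 72 h (log2 change 4.96, standard error 0.64, adjusted p = 5.35e-07 from edgeR). Hoxd3 went from 0.459 ± 0.409 to 9.38 ± 3.79 CPM and Hoxd4 from 1.62 ± 0.816 to 6.78 ± 0.655 CPM at 72 h, both after lower values at 12 h and 24 h; the call for Hoxd4 at 72 h was lost without run 7 (adjusted p = 0.0672 from edgeR). Hoxd8 was highest at 96 h (7.95 ± 2.15 CPM against 3.87 ± 0.526 CPM at 0 h), after lower values from 12 h to 48 h, and its calls at 72 h and 96 h were lost without run 6 (adjusted p = 0.211 and 0.171 from edgeR). Hoxd9 was highest at 0 h (4.87 ± 0.487 CPM) and lower from 12 h to 48 h. Hoxd13, the gene of digits, had 2.41 ± 1.04 CPM at 0 h and 5.18 ± 0.907 CPM at 72 h, and passed the test only at 72 h of the 7 times (log2 change 1.09, adjusted p = 0.013 from edgeR), a call lost without run 6 (adjusted p = 0.151). Hoxd10, Hoxd11 and Hoxd12 were not tested, with highest mean levels of 0.29, 0.608 and 0.0633 CPM.

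**Figure D2:**
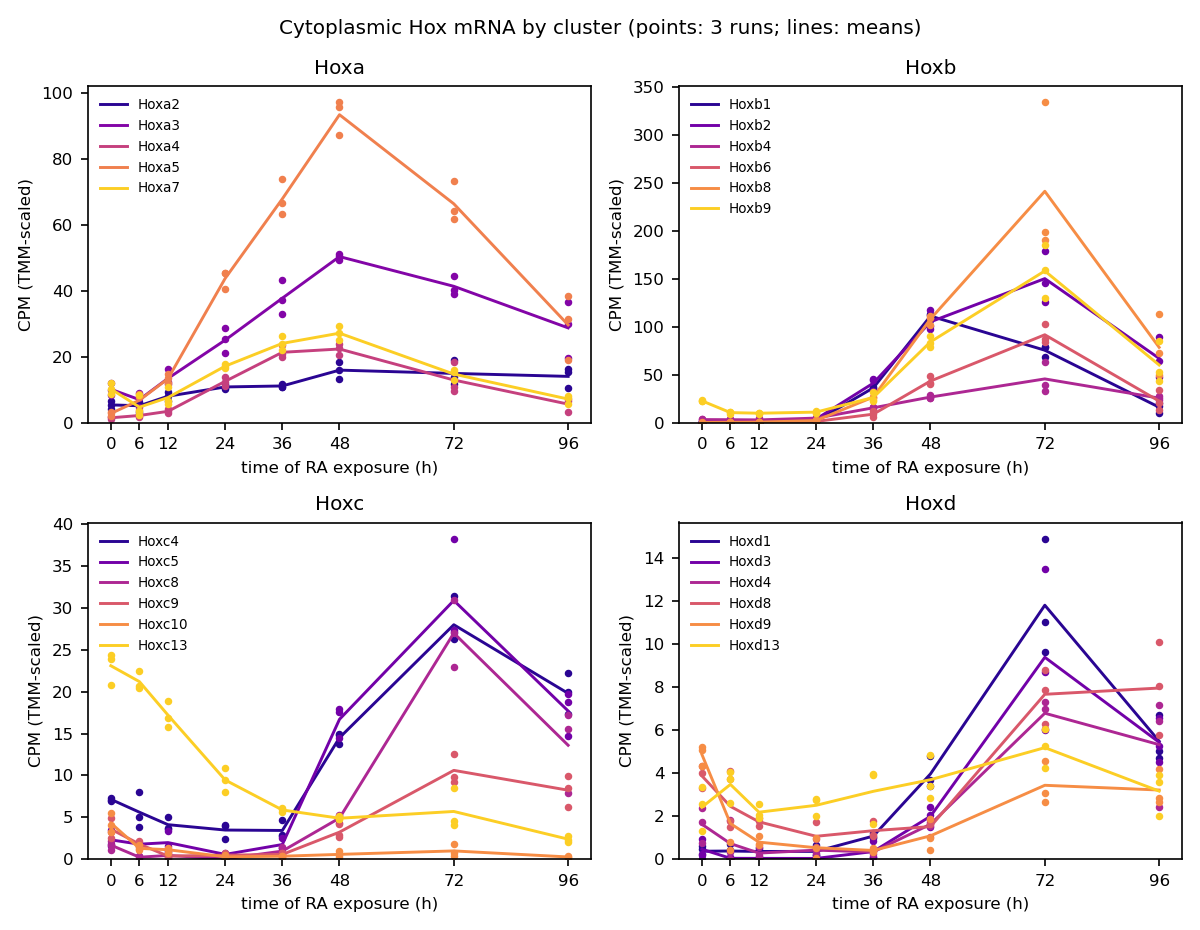
Cytoplasmic CPM after TMM scaling (linear axes, a different scale in each panel) against hours of RA exposure for selected members of each cluster; points are the 3 runs and lines their means. Hoxa5 climbs from 6 h to a peak at 48 h, Hoxb8 and Hoxb9 peak at 72 h, Hoxc13 declines from 0 h, and the Hoxd genes shown stay below 16 CPM.

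By summed length-corrected level, the cluster that held most Hox RNA changed with time. All 39 genes together had 141 ± 11.2 TPM at 0 h, 90.8 ± 5.2 TPM at 6 h, 212 ± 11.1 TPM at 24 h, 856 ± 39.1 TPM at 48 h and 1209 ± 185 TPM at 72 h. Hoxa held 51.3% ± 1.52 of it at 0 h (SD, n = 3 runs), 81.4% ± 0.23 at 24 h and 23.3% ± 2.64 at 72 h. Hoxb held 15.8% ± 1.49 at 0 h, 10.9% ± 1.13 at 24 h, 54.2% ± 1.49 at 48 h and 66.9% ± 2.41 at 72 h. Hoxc held 26% ± 0.601 at 0 h, more than Hoxb, and 2.21% ± 0.2 at 36 h, while Hoxd held at most 6.85% ± 0.484 of cytoplasmic Hox RNA, its share at 0 h, and 9.23% ± 2.25 of nuclear Hox RNA at that time. These sums rest on a few genes, and at 72 h Hoxb8 alone had 252 TPM and Hoxb2 143 TPM.

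The mean paralog number of the Hox RNA, weighted by TPM, moved toward the 3′ end within each cluster. In Hoxc it was 10.4 ± 0.29 at 0 h, when Hoxc12 and Hoxc13 led, 10.3 ± 0.46 at 24 h and 6.2 ± 0.11 at 48 h. In Hoxb it was 9.0 ± 0.28 at 0 h, 4.6 ± 0.10 at 36 h and 5.7 ± 0.14 at 72 h, so after the shift toward Hoxb1 and Hoxb2 it moved back toward Hoxb8 and Hoxb9. In Hoxd it was 8.1 ± 0.38 at 0 h and 4.7 ± 0.59 at 72 h, and in Hoxa 3.7 ± 0.24 at 0 h and 2.7 ± 0.17 at 72 h. These differences exceed the spread between runs, and they were not put to a test of their own.

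**Figure D3:**
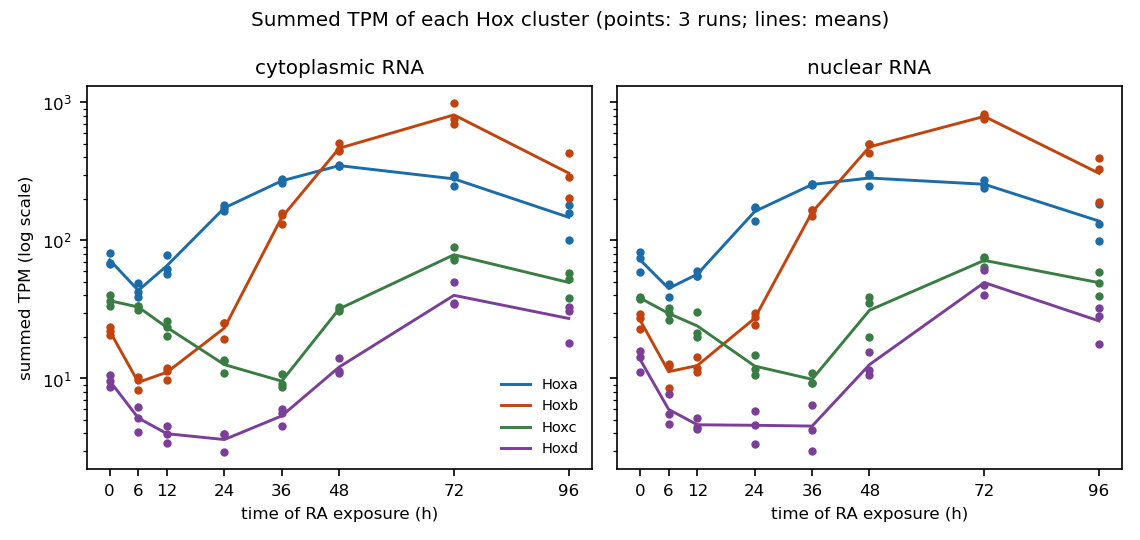
Summed TPM of each Hox cluster (log axis) against hours of RA exposure in cytoplasmic (left) and nuclear (right) RNA; points are the 3 runs and lines their means. Hoxb passes Hoxa between 36 h and 48 h in both fractions, Hoxc has its minimum at 36 h, and all 4 clusters are lower at 96 h than at 72 h.

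Timing was also described by the time at which a gene reached 50% of its maximum, interpolated in each run for genes with at least 50 normalized counts at their highest. In cytoplasmic RNA the 6 Hoxa genes with such a time had a median of 23.3 h and ranged from 16.2 h to 25.7 h. The 9 Hoxb genes had a median of 47.1 h (39.1 h to 49.1 h), the 4 Hoxc genes of 51.2 h (47.1 h to 57.3 h) and the 5 Hoxd genes of 55.6 h (37.2 h to 57.6 h). The ranges of Hoxa and of the other clusters did not overlap, whereas those of Hoxb, Hoxc and Hoxd did. The lowest Hoxd value, 37.2 h for Hoxd13, has an SD of 15.8 h over runs.

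Within clusters, the order by paralog number was partial. In Hoxb, Hoxb1 came earliest (39.1 ± 0.134 h), before Hoxb7 (40.4 ± 1.01 h), Hoxb2 (42.2 ± 3.2 h) and Hoxb4 (43 ± 8.04 h). Hoxb6 and Hoxb8 came last (49.1 ± 2.98 h and 49.1 ± 4.4 h). Spearman's rho of paralog number and time over the 9 Hoxb genes was 0.20, 0.67 and 0.73 in runs 5, 6 and 7, as a description of genes that share libraries. Over the 4 Hoxc genes it was 0.80, 0.60 and 0.80, with Hoxc4 (47.6 ± 1.33 h) and Hoxc5 (47.1 ± 2.26 h) before Hoxc9 (54.9 ± 0.961 h) and Hoxc8 (57.3 ± 0.66 h). Over the 6 Hoxa genes it was -0.03, -0.43 and -0.03, with Hoxa5 (25.7 ± 2.07 h) after Hoxa7 (19.3 ± 2.38 h) and Hoxa2 (16.2 ± 4.29 h), and over the 5 Hoxd genes it was -0.30, -0.20 and -0.30.

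**Figure D4:**
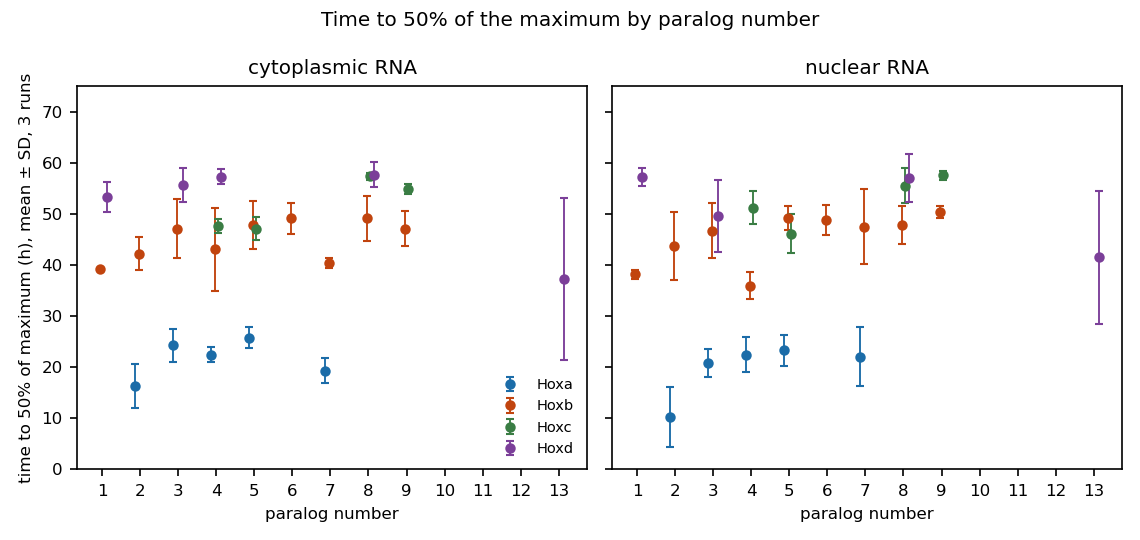
Time to 50% of the maximum (hours, mean with SD over 3 runs as bars) against paralog number in cytoplasmic (left) and nuclear (right) RNA, coloured by cluster. Hoxa points lie below 30 h and Hoxb, Hoxc and Hoxd points mostly between 35 h and 60 h, with a rise along Hoxb and Hoxc and none along Hoxa.

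From 48 h to 72 h, Hoxa and the other clusters parted. Of 32 members, 16 were higher at 72 h than at 48 h, against 17.8% of all genes, and they were 7 Hoxb, 4 Hoxc and 5 Hoxd genes. The 4 that were lower were all Hoxa genes: Hoxa4, Hoxa5, Hoxa7 and Hoxa10 (19.1% of all genes were lower), a count of 1 without run 6. The count of 16 was 8 without run 6 and 9 without run 7. From 72 h to 96 h none of the 32 was higher (13.7% of all genes) and 16 were lower (13.3%), namely 5 Hoxa, 8 Hoxb and 3 Hoxc genes. That count was 9 without run 6 and 10 without run 7. Hoxb1 was at 14.4% of its peak level at 96 h, Hoxb6 at 24.5%, Hoxa4 at 25.1% and Hoxb8 at 32.5%, while Hoxa2 was at 88.2% and Hoxb3 at 68.2%. All 39 genes had 1412, 1166 and 1048 TPM in runs 5, 6 and 7 at 72 h and 700, 531 and 359 TPM at 96 h. Over the same hours the summed level of the 9 XEN markers went from 2825 to 4181 CPM at 72 h to 12111 to 19002 CPM at 96 h. That of the 6 ectoderm markers also rose, from 530 to 660 CPM to 914 to 945 CPM. The summed level of the 4 fibroblast markers went from 17.7 to 21.5 CPM to 156 to 181 CPM. Most of that rise was Acta2, which went from 4.6 ± 1.68 to 140 ± 6.5 CPM. Col1a1 went from 13.8 ± 3.93 to 18 ± 5.62 CPM and Col3a1 from 0.701 ± 0.43 to 12.1 ± 2.1 CPM. Lama1, the XEN marker with the largest part of the XEN sum, had 9648, 11261 and 15597 CPM in runs 5, 6 and 7 at 96 h. This is the opposite order of the Hox sums. Of the 9 XEN markers, only Gata6 (248, 244 and 310 CPM) and Foxa2 (74.9, 74.8 and 100 CPM) did not rise from run 5 to run 6. The part of any of these cell types in the fall was not tested.

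In nuclear RNA, Hoxa again came before the other clusters by the time to 50% of the maximum. Calls at 24 h did not show this order, as 5 of 8 Hoxa and 7 of 10 Hoxb members were higher than at 0 h. At 6 h, 1 member was higher than at 0 h (Hoxa5; 10.7% of all 11934 genes) and 8 were lower (9.61%); the 8 were 5 without run 5 and 3 without run 6 or without run 7. At 72 h, 21 were higher (27.5% of all genes) and 6 lower (25.7%). The 6 were Hoxa9, Hoxa10, Hoxb13, Hoxc10, Hoxc12 and Hoxc13, which were also those lower in cytoplasmic RNA at 72 h. Hoxa5 had 0.799, 1.77 and 3.38 CPM at 0 h and 9.03, 8.2 and 8.38 CPM at 6 h in nuclear RNA, again with no overlap. The median time to 50% of the maximum was 22.2 h in Hoxa, 47.4 h in Hoxb, 53.3 h in Hoxc and 53.3 h in Hoxd, where 4 genes had such a time, so Hoxc and Hoxd were not apart there. Hoxb4 (35.9 ± 2.66 h) came before Hoxb1 (38.1 ± 0.91 h), and Hoxb5 and Hoxd1 were called higher at 12 h (adjusted p = 0.0401 and 0.0452 from edgeR). Of 23 members with a time in both fractions, 13 had an earlier mean in the nucleus, 5 were earlier in the nucleus in all 3 runs (Hoxa3, Hoxa5, Hoxb1, Hoxb4 and Hoxd3) and 3 were later in all 3 runs (Hoxb7, Hoxc4 and Hoxc9). The differences ranged from -7.1 h to 7.0 h around a median of -0.4 h, and time points lay 6 h to 24 h apart.

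The levels of the fractions were compared directly at each time, to ask whether Hox RNA was held in the nucleus or exported more at some time. As a possibility, the paper proposes that its fractionation left much cytoplasmic RNA in the nuclear fraction. Near-equal levels or times in both fractions therefore cannot decide this question. Hoxb4 was the only member past the threshold, at 48 h. It had 55.6, 51 and 73 CPM in nuclear RNA and 25.5, 28.7 and 25.7 CPM in cytoplasmic RNA, so the groups did not overlap (log2 difference 1.13, standard error 0.28, adjusted p = 0.00656 from edgeR). At 48 h, 4.69% of 11817 genes were higher and 4.74% lower in the nucleus. Without run 7 the call was lost (log2 difference 0.93, adjusted p = 0.211 from edgeR). With run and time point as a replicate block, Hoxb4 kept its call (adjusted p = 0.0422 from edgeR) and 1 member was lower in the nucleus at 48 h. At the other 7 times no member passed, with edgeR or DESeq2. In edgeR, 286 genes were higher and 160 lower in the nucleus at 0 h (2.42% and 1.35% of 11817), 29 and 8 at 72 h, 9 and 31 at 96 h, 1 and 1 at 6 h and none at 12, 24 or 36 h, so at most of these times the count of members says nothing about Hox genes in particular. At 0, 6, 12, 24, 36, 72 and 96 h, 3, 6, 3, 4, 1, 1 and 0 of 32 members had an unadjusted p under 0.05 in edgeR, against 17.2%, 11.2%, 7.21%, 9.91%, 6.96%, 11.2% and 14.1% of all genes. The median log2 difference of the 32 members lay between -0.23 at 48 h and 0.14 at 12 h. The nuclear difference at 12 h minus that at 96 h was past the threshold for no member and for 0 of 11817 genes in edgeR, with 1 member at an unadjusted p under 0.05; in DESeq2 it was so for no member and 1 gene.

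In total RNA the summed level did not show the early fall of cytoplasmic RNA. Single-end libraries had 61.9 and 64.7 TPM at 0 h and 72.8 TPM at 6 h for all 39 genes. The paired-end ones had 17.5 TPM at 0 h and 65.1 TPM at 12 h. Hox levels rose further at 24, 36 and 48 h and were lower again at 72 h (1 library) and 96 h. In both fractions, by contrast, the summed level was highest at 72 h. All 39 genes together had 584 and 569 TPM in the single-end libraries at 36 h and 48 h, 810 and 962 TPM in the paired-end ones, 297 TPM at 72 h and 70.1 and 152 TPM at 96 h. Compared with 0 h, with the kind of sequencing as a covariate, 10 of 33 tested members were higher at 24 h (7.32% of 16123 genes), 18 at 36 h (17.4%) and 22 at 48 h (19.5%). The 10 at 24 h were 3 of 9 Hoxa and 7 of 10 Hoxb members, so Hoxa did not lead there by calls. Without the single-end library at 36 h the count at 36 h was 10, and without the paired-end library at 48 h the count at 48 h was 13. Without the single-end library at 48 h it was 16. Hoxb8 had 0.229 and 0.0724 CPM in the single-end libraries at 0 h and 0 CPM in the paired-end library, and it had 51.3 and 69.3 CPM at 36 h, 47.6 and 118 CPM at 48 h and 26 CPM at 72 h. The higher value at 36 h and 48 h in each pair came from the paired-end library. At 96 h it had 3.92 and 11.3 CPM in replicates 1 and 2.

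At 96 h, 6 of 32 tested members were higher than at 0 h (Hoxa5, Hoxb3, Hoxb4, Hoxb5, Hoxb6 and Hoxb8; 16.4% of 15777 genes) and 4 were lower (Hoxb13, Hoxc10, Hoxc12 and Hoxc13; 13.3%), with 2 libraries at each time. Hoxb4 was at 1.87 and 1.3 CPM at 0 h and at 8.31 and 11.3 CPM at 96 h (log2 change 2.62, standard error 0.46, adjusted p = 0.0118 from edgeR). Hoxc13 was at 12.4 and 14.4 CPM at 0 h and at 4.21 and 3.27 CPM at 96 h (log2 change -1.86, standard error 0.38, adjusted p = 0.0179 from edgeR). Without replicate 2 at 96 h, 3 members were higher and none was lower. Without replicate 1 at 96 h none was lower, and without replicate 1 at 0 h 2 were lower. The labels number replicates and do not say whether they came from separate cultures, so these p-values measure the spread between the libraries.

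Total RNA libraries at 0 h differed among themselves in Hox level. All 39 genes had 61.9 and 64.7 TPM in the single-end libraries and 17.5 TPM in the paired-end one. Hoxb2 had 22.6 and 25.2 CPM in single-end libraries at 0 h and 0 CPM in the paired-end library, while in cytoplasmic RNA it had 0.989 CPM at 0 h. The kind of sequencing, the alignment and the experiment cannot be told apart in these differences.

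In cells sorted at 96 h, 20 of 31 Hox genes that passed a count filter were at least 2-fold higher in the library labelled ECT. The labels' sort markers go against the extraction notes for these libraries, so Pdgfra and Cd24a were checked first. The library labelled XEN had 793 CPM of Pdgfra and 22.2 CPM of Cd24a, and the library labelled ECT 209 and 658 CPM. The summed level of 10 XEN markers was 15659 CPM in the library labelled XEN and 6569 CPM in the library labelled ECT, and 6 were at least 2-fold higher in the former. For 10 ectoderm markers the sums were 148 and 1394 CPM, with 9 at least 2-fold higher in the library labelled ECT. The library labelled ECT thus also held XEN marker RNA, and fibroblast markers (5 genes, summed 2.39 CPM against 235 CPM) and mesoderm markers (8 genes, 1.28 against 16.3 CPM) were higher in it, with 4 and 2 of the 8 mesoderm genes at 0 in the libraries labelled XEN and ECT; their part in the Hox values was not tested. Acta2 alone gave 2.02 and 208 CPM of the fibroblast sums in the libraries labelled XEN and ECT. There is 1 library of each kind, so no test was made and intervals cover counting error only.

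Of 31 members with a mean count above 10 in the pair, 20 were at least 2-fold higher in the library labelled ECT, against 21.1% of 15088 genes, and none was 2-fold higher in the library labelled XEN, against 7.05%. By cluster these were 4 of 9 Hoxa, 9 of 10 Hoxb, 5 of 7 Hoxc and 2 of 5 Hoxd genes. The filter uses the mean of the libraries compared, so a member can pass through the library labelled ECT alone. Hoxb5 (1 count against 121) and Hoxb6 (3 against 89) did so. So did Hoxa2, Hoxa4, Hoxa9, Hoxb1, Hoxb3, Hoxb8, Hoxb9, Hoxc5, Hoxc6, Hoxc8, Hoxd1 and Hoxd4, with 2 to 8 counts in the library labelled XEN. These members make up most of the 20. For those with the fewest counts there, a ratio above 2 is nearly fixed, and for the others the filter favours it. Hoxa13 (8 against 18) also passed in this way and was less than 2-fold apart. The share thus describes the members that passed and is no test. Hoxb8 had 0.165 CPM in the library labelled XEN (4 counts, exact Poisson interval 0.0449 to 0.422) and 8.48 CPM in the library labelled ECT (329 counts, 7.59 to 9.44). Hoxb9 had 0.247 and 6.47 CPM, Hoxc5 0.165 and 3.94 CPM, Hoxa2 0.33 and 5.02 CPM, and Hoxb3 0.288 and 5.18 CPM. Hoxd13 (5.69 and 3.71 CPM), Hoxd8 (4.29 and 3.66 CPM) and Hoxd9 (2.14 and 2.34 CPM) were less than 2-fold apart. Hoxb2 differed by less than other 3′ Hoxb genes (15.1 and 33.7 CPM, ratio 2.24), and single-end libraries at 0 h had 22.6 and 25.2 CPM of it. By summed TPM, Hoxa had 25.3 in the library labelled XEN and 41.2 in the library labelled ECT, Hoxb 9.57 and 53.1, Hoxc 3.5 and 13.8, and Hoxd 6.03 and 7.87.

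**Figure D5:**
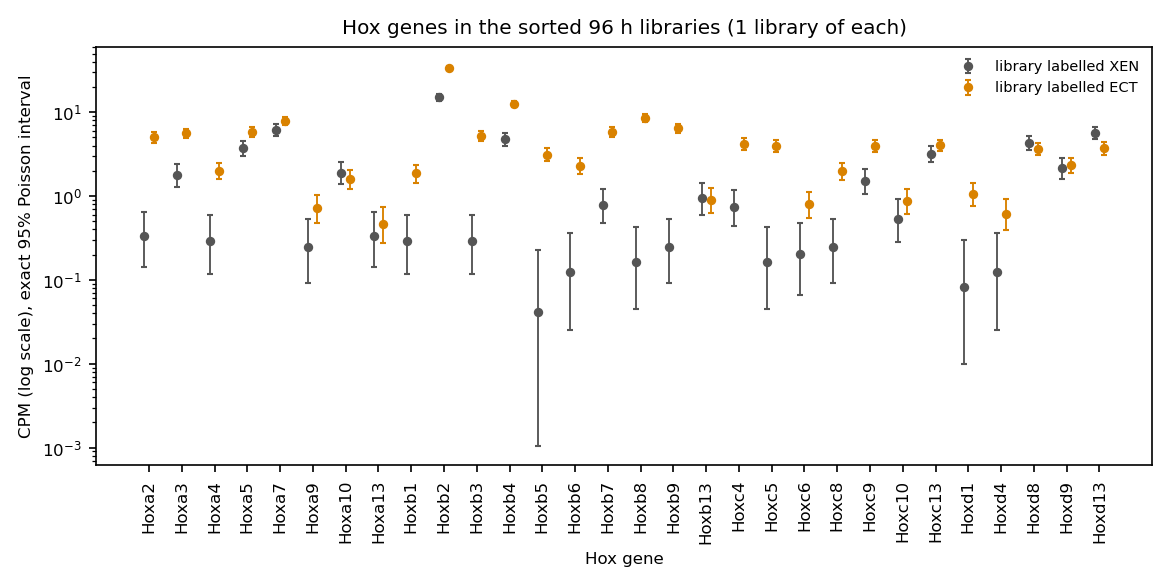
CPM (log axis) of Hox genes with a mean count above 10 in the sorted 96 h libraries, 1 library of each label; bars are exact 95% Poisson intervals for counting error. Hoxb1 to Hoxb9 lie higher in the library labelled ECT, while Hoxb13, Hoxd8, Hoxd9 and Hoxd13 lie close together.

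Genes that act with or upstream of Hox genes were counted from lists, to be read against the 32.5% of all genes that were higher and the 32.9% that were lower at 72 h. Of 9 TALE cofactors, 6 were tested in cytoplasmic RNA, and 5 were higher and 1 lower at 72 h than at 0 h. Pbx4, Meis3 and Pknox2 are not listed for the fractions, so they could not be tested there whatever their level. In total RNA at 96 h against 0 h all 9 were tested, and 5 were higher, Meis3 among them, and 0 lower (16.4% and 13.3% of all genes). Meis1 had 1.69 ± 0.578 CPM at 0 h, 8.74 ± 0.319 at 24 h and 118 ± 1.46 at 72 h (log2 change 6.04, standard error 0.18, adjusted p = 1.17e-17 from edgeR). Pknox1 fell from 50 ± 3.21 to 38.6 ± 1.8 CPM. Of 16 upstream regulators, 12 were tested, and 8 were higher and 3 lower at 72 h. The RA receptor gene Rarg peaked at 12 h, with 104 ± 14.5 CPM at 0 h, 437 CPM at 12 h, 373 ± 20.3 at 24 h and 53.9 ± 3.41 at 72 h, whereas Rarb went from 14.6 ± 2.12 to 99.5 ± 8.59 CPM at 72 h. Cyp26a1, which degrades RA, went from 0.614 ± 0.439 to 493 ± 127 CPM. Cdx1 and Cdx2, known activators of Hox genes, fell. Cdx1 had 269 ± 25.8, 42.9 ± 6.72 and 4.81 ± 1.96 CPM at 0, 24 and 72 h. Cdx2 had 29 ± 2.59, 0.37 ± 0.207 and 2.55 ± 0.399 CPM at these times. Egr2, a hindbrain regulator of 3′ Hox genes, was not tested, with 0.239 CPM at 72 h.

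Of 12 genes beside the clusters, 11 were tested at 72 h, and 3 were higher and 3 lower, shares near those of all genes, with a median log2 change of 0.06. On the Hoxa side, Snx10 fell from 42.4 ± 1.62 to 23.4 ± 7.34 CPM between 0 h and 72 h (log2 change -0.85) and Hibadh by 0.32 on the log2 scale, while Skap2 was at 146 ± 8.19 and 124 ± 3.52 CPM and did not pass (adjusted p = 0.0583 from edgeR). Beside Hoxb, Skap1 was at 0 in all libraries at 0 h and at 5.08 ± 0.253 CPM at 72 h, and Ttll6 went from 8.46 ± 1.67 to 1.46 ± 0.277 CPM. Beside Hoxd, Lnpk was at 33.3 ± 2.66 and 34.6 ± 3.88 CPM (log2 change 0.06, adjusted p = 0.688 from edgeR) and Mtx2 changed by 0.26. Of 20 noncoding RNAs of the clusters, 5 were tested, and 4 were higher at 72 h than at 0 h. Halr1, a noncoding RNA beside the Hoxa cluster, had 3.7 ± 1.01 CPM at 0 h and 12.9 ± 1.4 at 24 h, Hoxb3os, antisense in Hoxb, 0.642 ± 0.163 CPM at 24 h and 10.4 ± 4.16 at 72 h, and Haglr, at Hoxd1, 0.222 ± 0.253 CPM at 24 h and 3.49 ± 1.4 at 72 h. Hotairm1, in the Hoxa cluster, was the member that did not pass, with 0.799 ± 1.24 CPM at 0 h and 2.34 ± 2.01 CPM at 72 h.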

How the data were processed

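All libraries used were made with a stranded mRNA kit. Each was deposited on its own, with expected counts and TPM that RSEM gave the authors per gene. For single-end total RNA the labels name Bowtie2 2.2.6 and RSEM 1.2.28 on mm10, with an annotation release not given in the sources used here. For paired-end total RNA and both fractions they name Trimmomatic 0.38, STAR 2.6.1a and RSEM 1.3.1 on mm10. Expected counts were rounded to whole numbers, since estimated division of shared reads leaves fractions. Of 2201 member values above 0, 87.2% were whole within 0.005.

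Genes with a mean count above 10 were normalized by TMM and tested with edgeR 4.0.16 (quasi-likelihood test) in R 4.3.3, separately for cytoplasmic RNA, nuclear RNA, both fractions together, total RNA at 0 h and 96 h (single-end), and total RNA with the kind of sequencing as a covariate. P-values were adjusted by Benjamini and Hochberg over all genes tested, with a threshold of 0.05. SEs were computed from the F statistic. The tests were checked on simulated counts. DESeq2 1.42.0, its size factors, no filter, a mean count above 50, a replicate block and leaving out each library were tried as alternatives. Runs pair the fractions by the labels, since both came from the same cells; the deviations of same-run libraries from their group means correlated between -0.18 and 0.21 (median -0.06, 24 pairs). Members and gene lists were chosen with earlier results of these data known. Members were named by the rule on their symbols, and other genes only from lists. Values of some single genes are not reported here. Small RNA, transfection libraries and a table of coding sequence and UTR counts were not used here. Plots were drawn with matplotlib 3.10.9.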

Additional observations from a re-analysis of the deposited data

How the results depend on the processing

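Of the settings tried for the counts of members over all times, most left them within 1.5 times. Members higher at any time than at 0 h numbered 25 in cytoplasmic and 22 in nuclear RNA, and 22 to 26 and 20 to 21 when a run was left out; members lower numbered 21 and 19, and 18 to 20 and 12 to 17. Between consecutive times, 24 rose and 23 fell in cytoplasmic RNA, and 18 to 23 and 17 to 23 when a run was left out. A mean count above 50, which tests fewer members, gave 12 lower in cytoplasmic RNA, 11 in nuclear RNA and 2 instead of 4 in total RNA at 24 to 48 h. Between fractions, 1 member was higher and none lower in the nucleus. No filter gave 2 and 3, with 1 lower for the change between 12 h and 96 h, which was 0 when any run was left out. Leaving out a run gave 0 to 1 higher and 0 lower. The replicate block, which pairs the fractions by run, gave 1 lower and kept Hoxb4; in cytoplasmic RNA it lost 3 of 249 calls, in nuclear RNA 1 of 147. In total RNA at 24 to 48 h, 22 were higher and 4 lower, and 18 to 24 and 3 to 5 with a library left out. At 96 h, 6 were higher and 4 lower, and 3 to 7 and 0 to 4. With the sorted pair, a 4-fold rule gave 14 members and TPM 22 in place of 20; TPM moved the median of all genes from -0.01 to 0.34 on the log2 scale. Median times to 50% of the maximum, 23.3 h, 47.1 h, 51.2 h and 55.6 h in Hoxa to Hoxd, were 22.3 to 24.2 h, 43.9 to 47.7 h, 50.6 to 51.7 h and 54.1 to 56.3 h with a run left out. The time to 25% was 38.3 h in Hoxb and 43.2 h in Hoxc; it was not computed for Hoxa and Hoxd, since 1 member of each began above it.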
